A study of Mus musculus with 2 samples.

Results

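A set of 10 genes that mark Kupffer cells and macrophages in general was followed in mouse liver: Clec4f, Vsig4, Cd5l, Adgre1, Csf1r, Lyz2, Tyrobp, C1qa, C1qb and C1qc. They were listed by name as known markers of these cells, with earlier results of these data known. Every probe set that names 1 of them alone was used, and all 10 have at least 1, out of 12393 genes named that way on the array. The livers are labelled as coming from female mice of 2 months, homozygous for a knockout of apolipoprotein E on a C57BL/6J background. Both diets carry that knockout label, and no liver labelled wild-type was analysed here. The MAOO diet was chow with 10% (w/w) olive oil that had been enriched with maslinic acid, a triterpene from the olive fruit, and the OO diet was the same chow with 10% (w/w) olive oil. Feeding lasted 4 weeks with 6 mice per diet, and each diet is represented by 1 array; the sources used here do not say whether its RNA came from 1 mouse or a pool. Each result is therefore a difference between 2 arrays with no replicate check, and no p-value or standard error is given.

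Kupffer cells are the resident macrophages of the liver. They sit in the sinusoids, clear particles, old red cells and bacteria from portal blood, and take up lipoproteins. Their identity is usually read from C-type lectin 4F and the complement receptor CRIg (Vsig4), and their membership of the macrophage lineage from F4/80 (Adgre1) and the CSF-1 receptor, whose ligands keep macrophages alive. Macrophages are also a major source of C1q, the recognition molecule of the classical complement pathway, which is assembled from A, B and C chains.

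Apoe, the targeted gene, read 7630 on the array labelled MAOO and 407.7 on the array labelled OO, although both are labelled as knockouts. The positions of its probes are not known here, so the array labels are used below as given and every direction is between the arrays as labelled. Signals are the deposited MAS5 intensities in arbitrary units. Both arrays had a 2% trimmed mean of 200.1. A signal under 40.0 was set to 40.0 before a ratio was taken, and a gene counted as measured where its brightest probe set reached 80.0 on at least 1 array, which 5911 genes did. A positive log2 ratio means a higher signal on the array labelled MAOO than on the array labelled OO. All 10 genes were measured. All 14 of their probe sets lay above the floor on both arrays, with signals from 288.6 to 2363.3 on the array labelled MAOO and from 322.1 to 2716 on the array labelled OO. The label of the gene group thus has a signal behind it for each gene, including Clec4f and Vsig4, the markers most specific to Kupffer cells.

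None of the 10 genes differed between the arrays by 1.5-fold or by 2-fold. Of all 5911 measured genes 180 were at least 1.5-fold apart, or 3.05%, with 1.47% higher and 1.57% lower on the array labelled MAOO, and 0.609% were at least 2-fold apart, with 0.305% in each direction. Of the 10 genes 5 were higher and 5 were lower on that array, against 48% and 52% of all measured genes. The median log2 ratio of the 10 genes was -0.01, and so was that of all measured genes. Their ratios ran from -0.26 for Adgre1 to 0.43 for C1qb, with an SD across the 10 genes of 0.20. Across all measured genes the SD was 0.26, but those include dimmer genes, and Apoe at 4.23. The 2 SDs therefore do not compare genes of like signal, and they do not show that the 10 genes were steadier than such genes. In bulk liver RNA, fewer macrophages and less of a transcript per macrophage cannot be told apart.

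**Figure D1:**
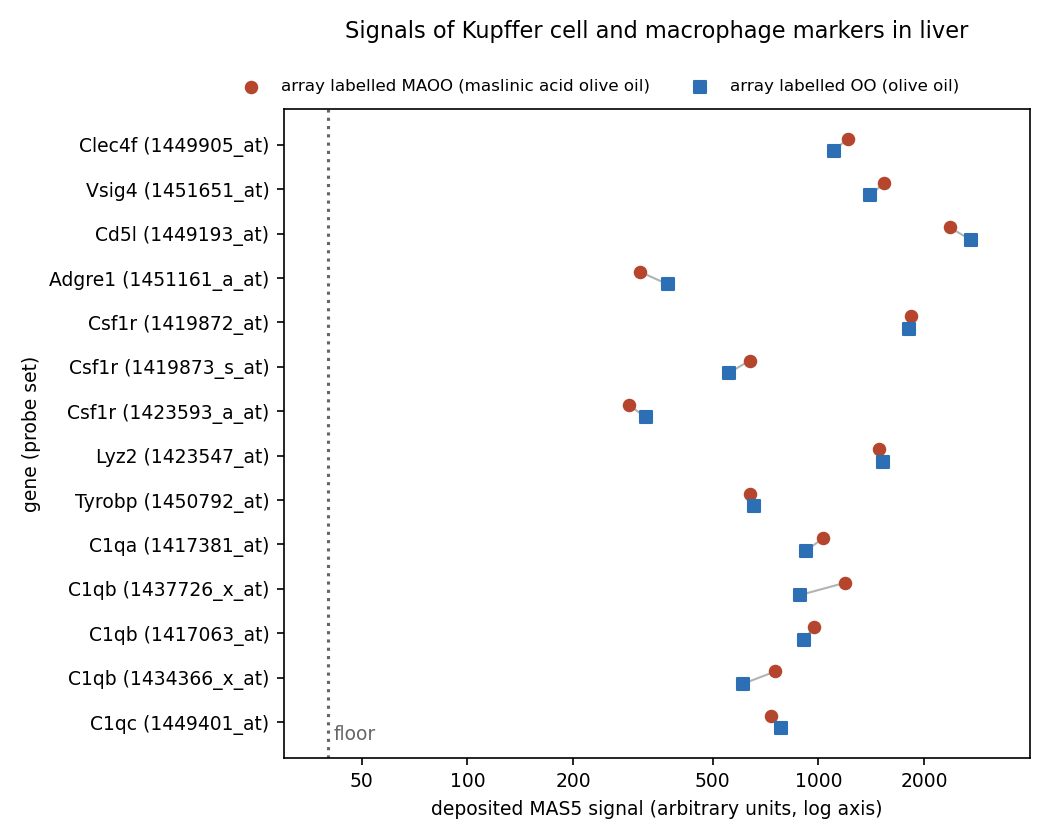
Deposited MAS5 signal (log axis, arbitrary units) of each of the 14 probe sets on the array labelled MAOO (circles) and the array labelled OO (squares), 1 array per diet; the dotted line is the floor of 40.0. The paired points lie close together in every row, and the widest gap is at 1 probe set of C1qb, with 1194 on the array labelled MAOO and 884.8 on the array labelled OO.

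Of the 3 markers grouped here under Kupffer cells, Clec4f and Vsig4 were slightly higher and Cd5l slightly lower on the array labelled MAOO. Clec4f, which encodes a lectin that binds galactose-containing glycans and in mouse liver is made by Kupffer cells, gave 1212.2 on the array labelled MAOO and 1104.4 on the array labelled OO, 1.10-fold higher (log2 ratio 0.13). Vsig4, the receptor by which Kupffer cells bind C3 fragments on circulating bacteria, read 1540.6 on the array labelled MAOO and 1400.3 on the array labelled OO, also 1.10-fold higher (log2 ratio 0.14). Cd5l, a secreted scavenger protein of tissue macrophages that is also called AIM, ran the other way, with 2363.3 on the array labelled MAOO and 2716 on the array labelled OO, 1.15-fold lower (log2 ratio -0.20). Each of these genes was read by 1 probe set.

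To give such ratios a scale, each was set beside the measured genes whose mean signal lay within 2-fold of its own. For Clec4f the middle 90% of 1114 such genes ran from -0.29 to 0.26, for Vsig4 the middle 90% of 967 genes ran from -0.27 to 0.26, and for Cd5l the middle 90% of 642 genes ran from -0.26 to 0.22. All 3 markers lay within those ranges, Cd5l nearest to an edge. Of all measured genes 29.6% were at least as far from equality as Cd5l.

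The wider macrophage markers also differed by less than 1.5-fold. Adgre1, which encodes the F4/80 antigen, had the lowest ratio of the 10 genes, with 310.2 on the array labelled MAOO and 371.6 on the array labelled OO, 1.20-fold lower (log2 ratio -0.26). It still lay within the middle 90% of 2504 genes of like signal, which ran from -0.32 to 0.32. Of those genes 15.9% were at least as far from equality as Adgre1. Lyz2, the lysozyme of myeloid cells, read 1484.6 on the array labelled MAOO and 1525.4 on the array labelled OO, a log2 ratio of -0.04. Tyrobp, which encodes the signalling adaptor DAP12, read 639.5 on the array labelled MAOO and 657.2 on the array labelled OO, also a log2 ratio of -0.04. Lyz2 and Tyrobp were thus within 1.03-fold on the 2 arrays.

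Csf1r was read by 3 probe sets, which did not go the same way. The brightest, 1419872_at, had 1839.9 on the array labelled MAOO and 1805.8 on the array labelled OO, a log2 ratio of 0.03. A further one, 1419873_s_at, had 636.9 on the array labelled MAOO and 554.7 on the array labelled OO, a log2 ratio of 0.20. The remaining one, 1423593_a_at, had 288.6 on the array labelled MAOO and 322.1 on the array labelled OO, a log2 ratio of -0.16. The sign of Csf1r therefore rests on the probe set used. Over the 1814 genes with several measured probe sets, probe sets of the same gene had a pooled SD of 0.23 in log2 ratio, and those of Csf1r an SD of 0.18.

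**Figure D2:**
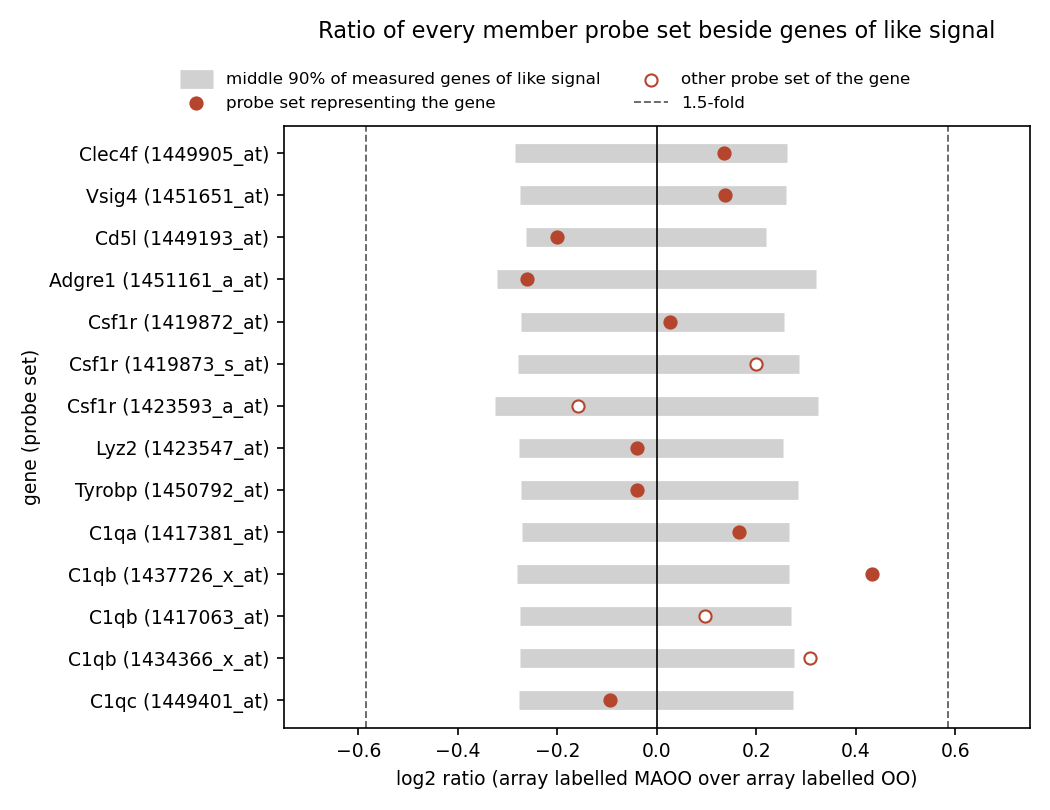
Log2 ratio (array labelled MAOO over array labelled OO) of each of the 14 probe sets; filled points represent the gene, open points are its other probe sets, grey bars are the middle 90% of measured genes with a mean signal within 2-fold, and dashed lines mark 1.5-fold. Of the 14 points 12 lie on their bar, and the 2 outside it belong to C1qb.

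The C1q chain genes lie next to one another in the gene order C1qb, C1qc, C1qa, and their products are joined in 1 protein. On the representative probe sets their ratios ran from -0.09 to 0.43, and the upper end was that of C1qb. With the C1qb probe set 1417063_at (0.10) in its place, the highest ratio was that of C1qa, at 0.17. C1qa, the A chain, had 1032.2 on the array labelled MAOO and 920.2 on the array labelled OO, 1.12-fold higher (log2 ratio 0.17). C1qc, the C chain, had 734.5 on the array labelled MAOO and 783.6 on the array labelled OO, 1.07-fold lower (log2 ratio -0.09). Both lay within the middle 90% of genes of like signal, with 1284 genes from -0.27 to 0.27 for C1qa and 1492 genes from -0.28 to 0.27 for C1qc.

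C1qb, the B chain, had the highest ratio of the 10 genes and was read by 3 probe sets. Its representative probe set, 1437726_x_at, had 1194 on the array labelled MAOO and 884.8 on the array labelled OO, 1.35-fold higher (log2 ratio 0.43). The probe set 1434366_x_at had 752.7 on the array labelled MAOO and 608.1 on the array labelled OO, 1.24-fold higher (log2 ratio 0.31). The probe set 1417063_at had 972.7 on the array labelled MAOO and 909.9 on the array labelled OO, 1.07-fold higher (log2 ratio 0.10). All 3 were higher on the array labelled MAOO, but by unequal amounts. The 2 higher ones carry the suffix _x_at, which Affymetrix gives to probe sets that can also bind other transcripts. They lay above the middle 90% of genes of like signal, which ended at 0.27 for the first and 0.28 for the other, and the remaining one lay inside it. Of all measured genes 6.61% were at least as far from equality as C1qb on its representative probe set, and 59.9% on 1417063_at. Among genes of like signal these shares were 3.39% and 48.5%. The gap between C1qb and C1qc was 0.53 on the log2 scale with the representative probe set and 0.19 with 1417063_at. The C1qb probe sets had an SD of 0.17 in log2 ratio, below the pooled SD of 0.23 between probe sets of the same gene. Whether the chain genes differed from one another was not tested.

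**Figure D3:**
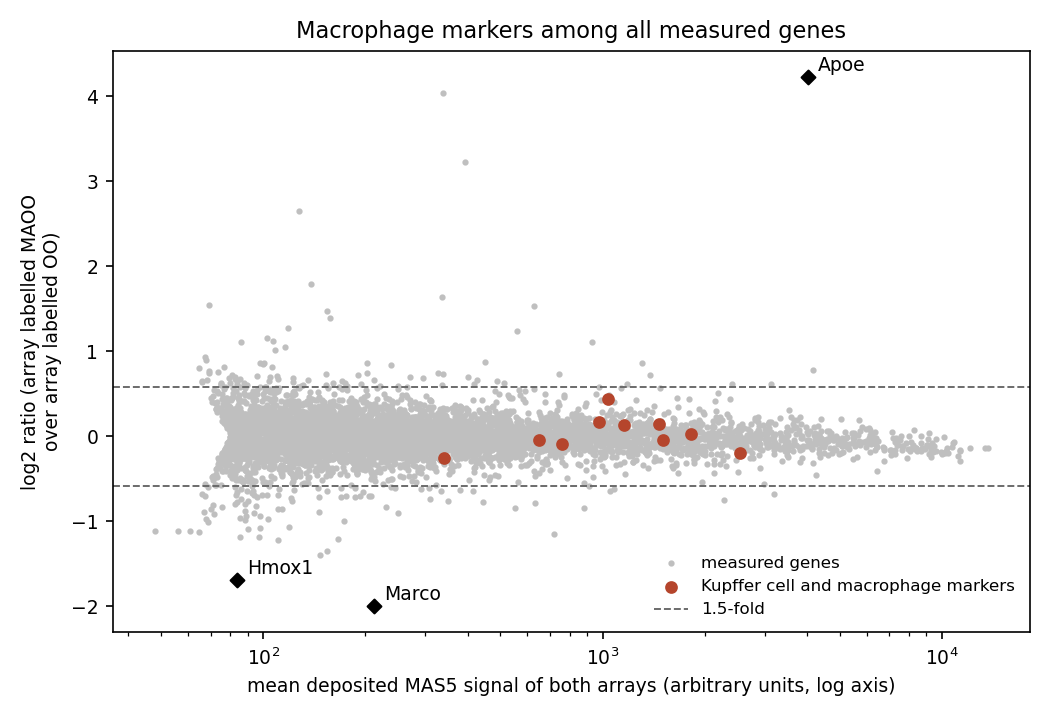
Log2 ratio (array labelled MAOO over array labelled OO) against the mean deposited signal of both arrays (log axis, arbitrary units) for the 5911 measured genes in grey, with the 10 Kupffer cell and macrophage markers as large points, 3 named genes as diamonds and dashed lines at 1.5-fold. All 10 markers lie between the dashed lines, while Marco, Hmox1 and Apoe lie outside them.

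Other genes of Kupffer cells and resident macrophages were then examined. Of a list of 20, 18 were named on the array and 13 were measured: 6 were higher and 7 lower on the array labelled MAOO, with a median log2 ratio of -0.0023. Of these 13, 2 were at least 1.5-fold apart, both lower. Among all measured genes 3.05% were that far apart in either direction, and 1.57% were that far lower. Marco, a scavenger receptor for bacteria and particles, had 84.6 on the array labelled MAOO and 338.1 on the array labelled OO, 4.0-fold lower. Hmox1, the inducible haem oxygenase with which macrophages break down haem, had 37.2 on the array labelled MAOO, under the floor, and 129.9 on the array labelled OO, at least 3.25-fold lower; with a floor of 200 after rescaling its log2 ratio was -0.70. The 10 markers of these cells stayed within 1.35-fold on the same arrays. With so small a share of all measured genes 1.5-fold apart, that does not show the 10 markers to be unusually steady. On the array labelled OO Marco was close in signal to the dimmest of them, Adgre1 (371.6), and brighter than the Csf1r probe set 1423593_a_at (322.1). The contrast is thus between Marco and Hmox1 and these 10 markers only. What lies behind that contrast was not tested, and the values of Marco and Hmox1 were known when the list was written.

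The other 11 measured genes of that list ranged from -0.17 to 0.29. Their largest ratios were those of Nr1h3, the oxysterol receptor LXR alpha, which hepatocytes also express (0.29), the interleukin-18 binding protein gene Il18bp (0.20) and the scavenger receptor gene Msr1 (0.19). Named after their values were seen, the folate receptor beta gene Folr2 had 353.3 on the array labelled MAOO and 362.8 on the array labelled OO, the mannose receptor gene Mrc1 had 571.1 on the array labelled MAOO and 566.2 on the array labelled OO, and the lysosomal protein gene Cd68 had 260.7 on the array labelled MAOO and 248.2 on the array labelled OO. These 3 markers were near equality, but they were picked with their values known and add no evidence about the list.

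Of 21 genes listed as expressed across myeloid cells, 19 were measured, 8 higher and 11 lower on the array labelled MAOO, with a median log2 ratio of -0.06. Lyz1, described below, is counted here and in the total that follows on a probe set with the suffix _x_at. One reached 1.5-fold: Fcgr3, an activating receptor for immunoglobulin G, had 194.9 on the array labelled MAOO and 126.1 on the array labelled OO, 1.55-fold higher. Next in size were Lst1 (-0.54), the integrin beta 2 gene Itgb2 (-0.42) and Cybb, the catalytic subunit of the phagocyte oxidase (0.32, and 0.01 with a floor of 200 after rescaling). Counted with the 10 markers and the resident macrophage list, 3 of 42 measured myeloid genes were at least 1.5-fold apart, 7.14% beside 3.05% of all measured genes. The values of Marco and Hmox1 were known when these lists were written, so the excess is no independent evidence.

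The lysozyme genes form a pair of near copies. Lyz1 lies next to Lyz2 in the gene order and is known in mice as the lysozyme of Paneth cells of the intestine. Its 2 bright probe sets both carry the suffix _x_at, and had log2 ratios of -0.14 and -0.31, with signals of 2737.6 and 2139.3 on the array labelled MAOO and 3025 and 2656.3 on the array labelled OO. Its unsuffixed probe set read 10.1 on the array labelled MAOO and 13.6 on the array labelled OO, under the floor. Which of the 2 genes the suffixed probe sets read was not tested, and the value of Lyz2 is uncertain to that extent. Lyz1 was described in full after its values were seen.

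The ligands and partners of the markers were mostly dim. Of 7 Csf1r ligands and related cytokine receptors 1 was measured, the ligand gene Csf1, with 101.3 on the array labelled MAOO and 92 on the array labelled OO (log2 ratio 0.14). The other ligand gene, Il34, read 16.2 on the array labelled MAOO and 15.6 on the array labelled OO, under the floor. Of 10 listed signalling partners of Tyrobp 8 were named on the array and 2 were measured: Fcer1g, the adaptor of Fc receptors, at a log2 ratio of 0.06, and the phospholipase gene Plcg2 at -0.05. The median of that pair was 0.01. Trem2, a receptor that signals through Tyrobp, read 6.6 on the array labelled MAOO and 8.4 on the array labelled OO, under the floor.

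The partners of C1q, which hepatocytes make in large part, were measured for 4 of the 6 genes listed, and C3 and C4b were not analysed here. The protease genes C1s1 and C1ra had log2 ratios of 0.17 and -0.09, and Serping1, the C1 inhibitor, had 0.01. The remaining gene, C2, had 436.1 on the array labelled MAOO and 436 on the array labelled OO. The median of the 4 was 0.005, and none reached 1.5-fold.

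**Figure D4:**
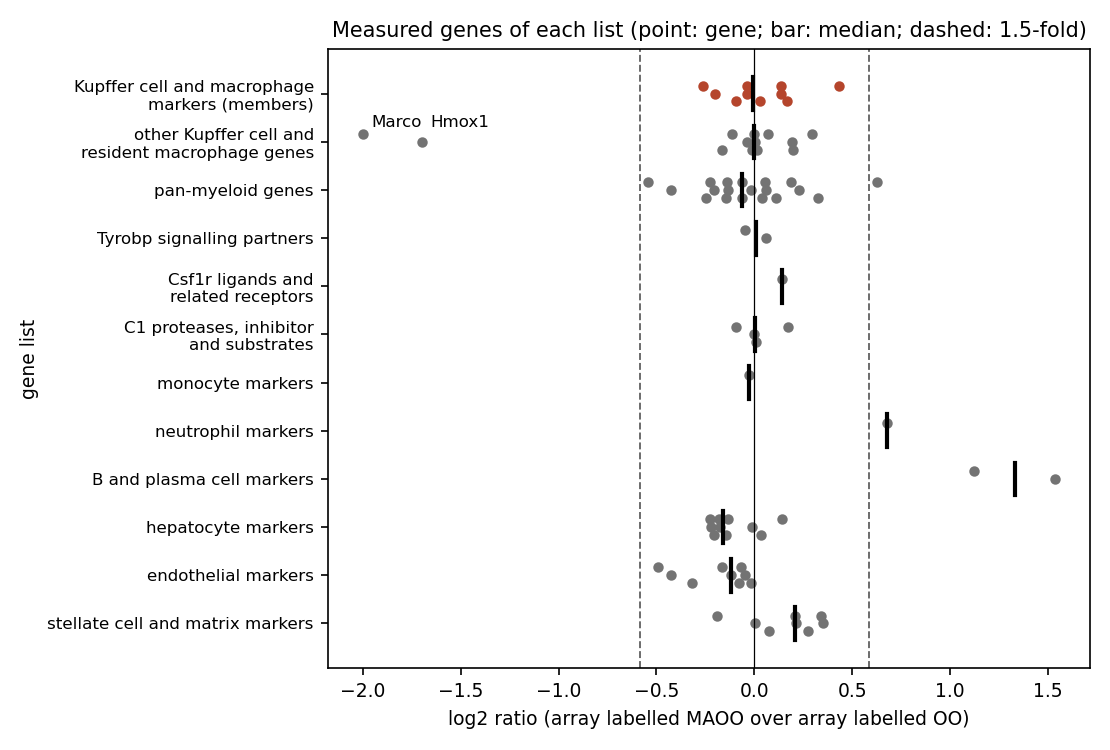
Log2 ratio (array labelled MAOO over array labelled OO) of every measured gene of each list (points), with the list's median (bar) and dashed lines at 1.5-fold; lists with no measured gene are left out. The 10 Kupffer cell and macrophage markers and most genes of the related lists lie near 0, Marco and Hmox1 lie far to the left, and the 2 measured B and plasma cell genes lie to the right.

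Markers of other blood cells were near or under the floor, with exceptions in 3 lists. Of 6 monocyte markers, 5 lay under the floor on both arrays, among them Ccr2 and Cx3cr1, and Plac8 had a log2 ratio of -0.03. No marker of dendritic cells (6 on the array) or of T and NK cells (9 on the array) was measured, and the brightest of either list read 50.7 on the array labelled MAOO and 53.1 on the array labelled OO. Of 10 neutrophil markers 7 lay under the floor on both arrays, and 1 was measured, the calprotectin subunit gene S100a8, with 135.7 on the array labelled MAOO and 84.8 on the array labelled OO, 1.60-fold higher.

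Of the 6 B and plasma cell markers on the array 2 were measured, and both lay past 1.5-fold, on the higher side for the array labelled MAOO. Ighm, the immunoglobulin mu heavy chain gene, had 936.2 on the array labelled MAOO and 322.9 on the array labelled OO, a log2 ratio of 1.54, with its 3 measured probe sets between 0.49 and 1.54. Jchain, the joining chain of secreted IgM and IgA, had 146.4 on the array labelled MAOO and 67.3 on the array labelled OO, 2.18-fold higher. Its log2 ratio was 1.12, and 0.87 with a floor of 200 after rescaling. The other 4 markers, among them Cd79a and Ms4a1, were below the minimum signal. The part of these cells in the small differences of the macrophage markers was not tested.

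On their representative probe sets, the markers of other liver cells stayed within 1.5-fold. Hepatocyte markers had a median log2 ratio of -0.16, with 8 of 10 lower on the array labelled MAOO, including the transthyretin gene Ttr (-0.23), Hnf4a (-0.22, but 0.64 on another probe set) and the albumin gene Alb (-0.21). The size of that median depended on scaling: it was -0.05 with quantile scaling and -0.09 with the loess trend removed. With quantile scaling Ttr was at -0.06 and Alb at -0.08. All 9 measured endothelial markers were lower on their representative probe sets, where 52% of all measured genes were lower. Their median was -0.12, led by the VEGF receptor gene Kdr (-0.49), Oit3 (-0.42) and the VE-cadherin gene Cdh5 (-0.32). For Eng the sign depended on the probe set, with -0.05 on the representative and 0.007 on another. Stellate cell and matrix markers had a median of 0.21, with 7 of 8 higher, among them the smooth muscle actin gene Acta2 (0.35), the lumican gene Lum (0.34) and the vimentin gene Vim (0.27). The stellate cell median also depended on processing: it was 0.14 with no minimum signal and 0.09 without suffixed probe sets. The median of the macrophage markers, -0.01, lay between those of hepatocytes and endothelium on one side and of stellate cells on the other, and on the representative probe sets none of these lists held a gene 1.5-fold apart.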

How the data were processed

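Liver RNA was measured on 1-colour Affymetrix arrays, 1 per diet. The deposited intensities are linear MAS5 signals, 1 per probe set, which the authors obtained with MAS5, per the submitters' processing notes; version, settings and genome build: not given in the sources used here. Of 22690 probe sets, 64 were controls; 20393 named 1 gene in the platform annotation, 691 several and 1606 none, and 20364 had an Entrez number in the gene table of GRCm38.p6. That table served for names and gene order only, so no coordinates are given.

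Here each array was brought to a 2% trimmed mean of 500, floored at 100, and called measured at 200 on at least 1 array. A gene's brightest probe set represented it, and every probe set of the 10 genes is reported. With 1 array per diet, size alone was used, with 1.5-fold as the call. The number of arrays limits the precision. Lists overlap in a few genes, such as Fcer1g and Fcgr2b. From each list the text names every gene at least 1.5-fold apart and up to 3 others with the largest ratios; other names are defining markers of a list, complete a short list or are said to be chosen later. No gene was named for a like pattern, since 2 arrays give none. The members and lists were chosen with earlier results of these data known. Steps were tested on simulated data (Python 3.11.15, pandas 2.3.3, statsmodels 0.14.6 for the loess trend).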

Additional observations from a re-analysis of the deposited data

How the results depend on the processing

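The 11 alternatives were 4 other scalings (deposited, equal medians, quantile, loess trend removed), floors of 50 and 200, no minimum signal, a minimum of 400, a minimum applied to the 2-array mean, averaging a gene's measured probe sets, and leaving out probe sets with a suffix such as _x_at. Of 109 values of the 10 genes, 108 moved by less than the SD between probe sets of 1 gene (0.23), none of the 109 changed sign, and none reached 1.5-fold. The exception was C1qb, at 0.10 without suffixed probe sets, where Adgre1 could not be measured. The median of the 10 genes stayed between -0.01 and 0.03 and changed sign with quantile scaling, with the loess trend removed and without suffixed probe sets. With no minimum signal the median of the neutrophil list was 0 and that of the B and plasma cell list 0.11, since the added genes lay at or near the floor. Of the list medians, 3 that lay near 0 changed sign: the resident macrophage list (up to 0.0036), pan-myeloid genes (up to 0.05) and C1 partners (down to -0.0015). Among the other named genes Hnf4a changed sign (up to 0.64). No scaling moved the median of all measured genes by 0.1. With a minimum of 400, 85 genes were at least 1.5-fold apart in place of 180, over 4168 measured genes. Neutrophil and Csf1r ligand lists could not be computed with a minimum of 400 or without suffixed probe sets. Leaving out an array would leave a diet without data. No paired analysis was possible because there is a single array for each diet.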
